A study of Harpegnathos saltator with 35 samples.

Results

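The comparison described here sets 3 neuronal cultures held in 20-hydroxyecdysone (20E) against 5 held in juvenile hormone III (JH3), all 8 collected 30 min after a change of medium. They are 8 of the 35 libraries of polyadenylated RNA sequenced from the ant Harpegnathos saltator, and share no library with the 9 baselines on which the effect of the culture hormone can also be read. The first group, called 20E cultures below, had grown for 5 days in 2 µM 20E and then received 2 µM JH3 for 30 min. The second, called JH3 cultures, had grown for 5 days in 2 µM JH3 and then received 2 µM 20E for 30 min. The baselines (5 libraries from cultures in 20E and 4 from cultures in JH3) instead received the solvent DMSO for 30 min. All were primary cultures of dissociated central brains on coated plates, in a medium that also held progesterone, insulin and, for the first 4 days, honeybee pupal extract. Replicates were independent cultures, per the series' design text; how many brains went into each culture is not given in the labels. The 3 libraries of the 20E cultures came from sequencing runs A, B and C, in the order of their replicate numbers, and replicates 1 to 5 of the JH3 cultures from runs C, B, C, A and A.

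20E is the active steroid of insect moulting. It binds a receptor made of the ecdysone receptor (Ecr) and ultraspiracle (usp), which switches on a first tier of nuclear receptors and other regulators, and these in turn control later genes. JH3 is a sesquiterpenoid that acts through its own receptor and induces the zinc finger gene Kr-h1. In adult ants and bees both hormones vary with caste and reproductive state, and the brain expresses receptors for both.

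Genes with an FPKM (fragments per kilobase of gene, scaled per library, as deposited) of at least 1 in 3 or more libraries were tested, which left 9873 genes. The deposited scale followed size factors from median ratios between libraries (spread 0.241%) more closely than total reads (spread 8.3%). Fold changes are 20E over JH3 cultures on the scale of log2(FPKM + 1), adjusted for sequencing run, with a standard error (SE), and they understate the change of low genes. A gene was called when limma's adjusted p (Benjamini-Hochberg over all 9873 genes, two-sided) was under 0.05. Assigned reads ran from 5938007 to 15044716 per library, and the shallowest, JH3 replicate 5, also stood apart from its group. On the second principal component of the 8 libraries (17.3% of the variance) it lay at -37.1, while the other 7 lay between -11.5 and 11.7. Among the baselines, JH3 baseline replicate 4 lay between the groups (below). Replicate 2 of the 20E cultures had the steepest fall of expression with gene length among the 8, at -0.152 log2 units per doubling of length, against -0.0064 and -0.0044 in the other 2 and -0.0423 to 0.0950 in the JH3 cultures.

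The new hormone had acted for 30 min by then, and no effect of it passed the test. limma called 0 genes between the 20E cultures given JH3 for 30 min and the 20E baseline (1008 at an unadjusted p under 0.05), and 0 between the JH3 cultures given 20E for 30 min and the JH3 baseline (168 at an unadjusted p under 0.05). With no effect, a share of 0.05 of the 9873 genes would be under that p on average, fewer than 1008 and more than 168. On recovered reads, voom gave 0 for each of them too. With replicate 1 of the 20E cultures left out, 129 genes were called in the first of these. A p that misses the threshold does not show that 30 min of hormone left these genes as they were.

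The 20E and JH3 cultures differed widely. In these 8 libraries the 5-day hormone and the opposite hormone of the last 30 min always go together and cannot be told apart. limma called 1946 of 9873 genes (19.7%) between 20E and JH3 cultures, 830 higher in 20E cultures (8.41%) and 1116 lower (11.3%). Of the 1946, 1468 had no overlap between the 3 and the 5 values (75.4%), where 21.0% of all tested genes had none (10.3% higher and 10.6% lower). Between the baselines 11.8% of all genes did not overlap (4.93% higher and 6.87% lower). Changes past 1 log2 unit leaned downward, with 130 of the called genes higher and 348 lower by that much. Along the first principal component, with 46.5% of the variance, the libraries lay at 17.5 to 48.8 in the 20E cultures and -25.6 to -10.7 in the JH3 cultures. The count was 1983 without JH3 replicate 5 (20.1%; 8.45% higher and 11.6% lower) and 985 without 20E replicate 2. Once the length trend of the libraries entered the fit as a covariate it was 2689 (27.2%; 12.6% higher and 14.6% lower). It was 991 when the 8 libraries were fitted alone, 1370 within runs B and C, and 63 within run A, where 1 library stood against 2.

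A direct reading of how far the earlier effect was repeated came from a fit of the 8 libraries alone and a fit of the 9 baselines alone, which share no library. The fit of the 8 called 991 genes (10.0%; 4.35% higher and 5.69% lower) and the fit of the baselines 692 (7.01%; 3.01% higher and 4.00% lower). Of the 692, 679 had the same direction in the 30 min libraries (98.1%) and 381 were also called there (55.1%), while 66.6% of all 9873 genes had the same direction in both fits. None of the 692 was called in the opposite direction. In the other reading, 965 of the 991 had the same direction between the baselines (97.4%) and 381 were called (38.4%). Across all tested genes the 2 sets of fold changes had a Pearson r of 0.711, a description over genes, which are not independent replicates.

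**Figure D1:**
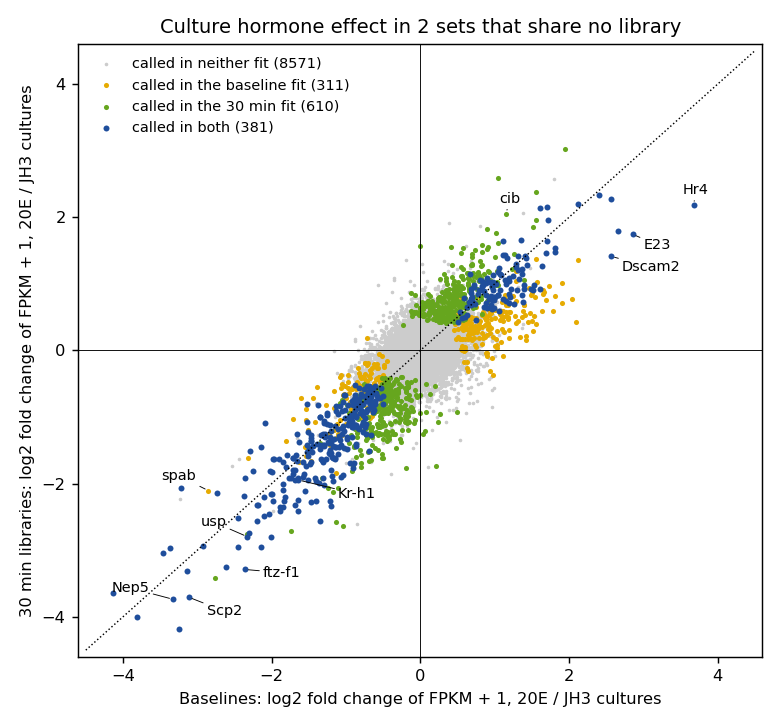
Log2 fold change of FPKM + 1, 20E over JH3 cultures, for each of 9873 genes, between the baselines (x axis) and in the 30 min libraries (y axis), each fitted alone. The 381 genes called in both fits lie at the lower left and upper right; the median ratio of the y to the x value, over the 692 genes called between the baselines, was 1.0 for genes lower in 20E and 0.61 for genes higher.

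Genes higher and genes lower in the 20E baseline are described apart. The 395 genes that were lower had a median log2 fold change of -1.08 in the 30 min libraries and -1.03 between the baselines, and 394 of them were lower in the 30 min libraries too. Of these 395, 271 were called in the 30 min fit (68.6%). The 297 genes that were higher had a median of 0.59 in the 30 min libraries and 0.96 between the baselines, 285 kept the direction, and 110 were called (37.0%). The median ratio of the 30 min effect to the baseline effect was 0.61 for the higher genes and 1.0 for the lower ones, and 0.655 and 0.906 without the 2 libraries that stood apart. Read the other way, from genes called in the 30 min fit, the ratio of the baseline effect to the 30 min effect was 0.663 for genes higher and 0.748 for genes lower in 20E, and 0.83 for both without the 2 libraries that stood apart. Genes chosen by a call in one set have effects selected for size in that set, so a ratio under 1 says nothing on its own, and the difference between the directions was not tested. The 13 genes of the 692 with opposite directions were mostly known by number only. Those with a symbol were Neto, which encodes an auxiliary protein of glutamate receptors, the nicotinic receptor subunit gene nAChRalpha4 and Invadolysin, a peptidase gene. Neto had a log2 change of -0.36 in the 30 min libraries alone (adjusted p = 0.384, limma) and 0.97 between the baselines alone. nAChRalpha4 had -0.31 (adjusted p = 0.551, limma) and 0.94, and Invadolysin -0.04 (adjusted p = 0.905, limma) and 0.89.

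The difference between the 2 effects was also tested gene by gene, in the fit of all 35 libraries. limma called 0 of 9873 genes, and the largest difference was 2.04 log2 units in size. At an unadjusted p under 0.05 there were 936 genes, above the share of 0.05 that would be there on average with no difference. voom on recovered reads also called 0. Without replicate 1 of the 20E cultures 24 genes were called, of which 3 had a higher and 21 a lower effect in the 30 min libraries than between the baselines. In the joint fit, which called 2088 genes between the baselines (21.1%; 9.70% higher and 11.4% lower), 1061 genes were called in both sets in the same direction, which is 54.5% of the calls in the 30 min libraries and 50.8% of those between the baselines, and 1 gene was called in opposite directions. With the 2 sets averaged, 3280 genes were called (33.2%), 1554 higher (15.7%) and 1726 lower in 20E (17.5%).

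Each library could be placed on the axis that the baselines define. Over the 692 baseline genes the mean of the JH3 baseline was set to 0 and that of the 20E baseline to 1, so the baselines' own places are partly built in, while the 8 libraries took no part. The 20E cultures lay at 0.955, 0.926 and 0.790, a mean of 0.890 ± 0.088 (SD, n = 3). The JH3 cultures lay at -0.0437, 0.0106, -0.0101, -0.0353 and 0.109, a mean of 0.00616 ± 0.0615 (SD, n = 5). The groups did not overlap and were apart by more than the spread within either, and the library of the JH3 cultures nearest to the 20E side was replicate 5. JH3 baseline replicate 4 lay at 0.243 on an axis it had helped to make, and at 0.479 on one made without it.

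**Figure D2:**
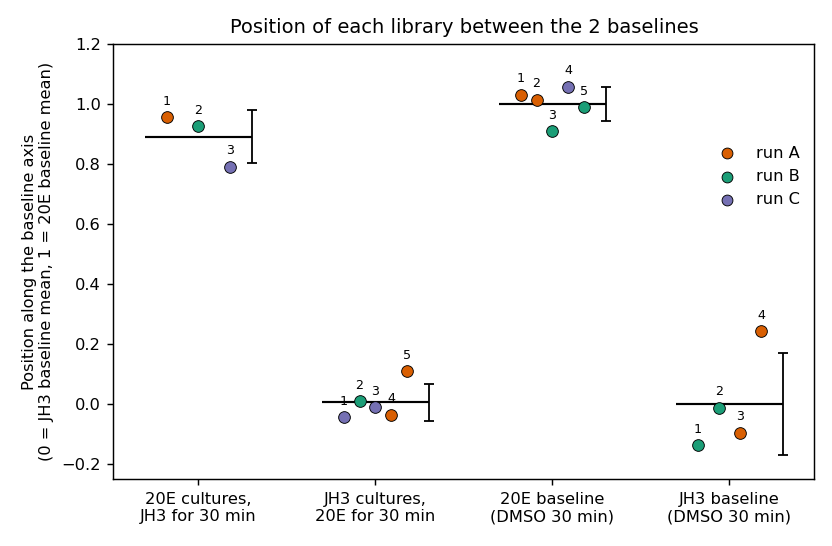
Position of each 30 min and baseline library between the mean of the JH3 baseline (0) and of the 20E baseline (1), over 692 genes, coloured by sequencing run, with the replicate number above each point. Lines are group means and bars their SD. The 3 libraries of 20E cultures lie between 0.790 and 0.955 and the 5 of JH3 cultures between -0.0437 and 0.109.

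Among 13 measured genes of the ecdysone response, 4 were higher in 20E cultures and 3 lower, and the other 6 did not pass the test. Over all genes 8.41% were called higher and 11.3% lower. Hr4 (LOC105190338) encodes a nuclear receptor induced in the ecdysone cascade. Its level was 72.9, 23.8 and 35.9 FPKM in 20E cultures, against 5.34, 6.49, 5.66, 4.90 and 40.1 in JH3 cultures. JH3 replicates 1 to 4 were thus far under every 20E culture, and replicate 5 was inside their range. The log2 change was 2.15 (SE 0.47, adjusted p = 0.00157, limma) and 2.65 without that library. E23 (LOC105184499), an ABC transporter gene known in Drosophila as an early ecdysone gene, was at 43.7, 13.1 and 26.4 FPKM in 20E cultures and at 5.08, 8.47, 5.49, 5.18 and 12.9 in JH3 cultures. The groups did not overlap, although the highest JH3 culture was again replicate 5, and the fold change was 1.76 (SE 0.37, adjusted p = 0.00119, limma). The nuclear receptor gene E75 (LOC105187469) was at 112, 68.2 and 72.1 FPKM in 20E cultures and between 41.2 and 52.3 in JH3 cultures, a fold change of 0.79 (SE 0.25, adjusted p = 0.0238, limma). Without replicate 1 of the 20E cultures E75 was at 0.48 and not called (adjusted p = 0.218, limma). The fourth higher member was the cyclin-dependent kinase gene Eip63E, at 0.37 (SE 0.13, adjusted p = 0.0470, limma), named because the count is small; it was not called without JH3 replicate 5 (adjusted p = 0.0669).

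Both partners of the ecdysone receptor and the late nuclear receptor ftz-f1 were lower in 20E cultures. ftz-f1 was at 4.93, 2.74 and 8.18 FPKM in 20E cultures, against 49.3, 61, 64.5, 45 and 65.2 in JH3 cultures. Every 20E culture lay well under every JH3 culture, with a log2 change of -3.28 (SE 0.34, adjusted p = 5.16e-08, limma). usp (LOC105190116) was at 7.59, 3.67 and 11 FPKM in 20E cultures and at 52, 75.4, 44.3, 53.6 and 46.9 in JH3 cultures, a fold change of -2.78 (SE 0.28, adjusted p = 2.23e-08, limma). Its partner Ecr changed less, with 5.36, 4.70 and 6.22 FPKM in 20E cultures and 8.27 to 10.5 in JH3 cultures (-0.65, SE 0.16, adjusted p = 0.00348, limma). The calls of ftz-f1, usp and Ecr stood whichever of the 8 libraries was left out.

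Of the 6 ecdysone response genes called higher in the 20E baseline, 3 were called higher in the 30 min libraries. Over all genes 9.70% were called higher in the 20E baseline and 8.41% in the 30 min libraries. The other 3 were Hr3, Eip93F and Blimp-1, regulators of transcription that act in ecdysone-timed development. Hr3, a nuclear receptor gene, was at 61.2, 30.9 and 48.6 FPKM in 20E cultures and at 27.3, 35.8, 23.4, 25.9 and 48.5 in JH3 cultures, so the groups overlapped through JH3 replicates 2 and 5. Its log2 fold change was 0.55 (adjusted p = 0.0808, limma) in the 30 min libraries and 1.46 between the baselines, and Hr3 was called without JH3 replicate 5 (0.72, adjusted p = 0.0191) and without 20E replicate 2 (0.77, adjusted p = 0.0457). Eip93F was at 80.4, 25.1 and 24.6 FPKM in 20E cultures and between 20.1 and 39.8 in JH3 cultures, where 1 library of the 20E cultures alone was high. The fold change of Eip93F was 0.37 (adjusted p = 0.512, limma), against 1.54 between the baselines, and that of Blimp-1 was 0.55 (adjusted p = 0.307, limma), against 1.36. br, which encodes the Broad zinc finger proteins, had -0.13 (adjusted p = 0.851, limma). Summed over the list, FPKM was 477, 226 and 332 in 20E cultures and 275 to 379 in JH3 cultures.

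Kr-h1 (LOC112589664) was at 5.61, 8.25 and 7.10 FPKM in 20E cultures, against 30.0, 35.8, 27.2, 25.6 and 27.9 in JH3 cultures. Every 20E culture was well under every JH3 culture, with a log2 change of -1.92 (SE 0.43, adjusted p = 0.00178, limma). The other measured gene of the juvenile hormone list, the bHLH-Orange gene Sidpn, was at 12.8, 14.2 and 10.1 FPKM in 20E cultures and at 11.7 to 23.5 in JH3 cultures. Its call (-0.51, SE 0.17, adjusted p = 0.0282, limma) was lost without any 1 of 4 libraries, and the value was -0.32 without 20E replicate 3 (adjusted p = 0.245). The others of the 4 were 20E replicate 2 and JH3 replicates 1 and 2 (limma adjusted p = 0.0595, 0.069 and 0.0943). Of 4 measured genes that make or break down ecdysteroids, none was called, with fold changes between -0.19 and 0.12.

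Of 3 measured genes of the circadian clock, 2 were lower in 20E cultures and none higher, where 11.3% of all genes were lower. per, whose protein represses its own transcription in the clock, was at 0.681, 0.315 and 0.973 FPKM in 20E cultures, against 7.12, 6.84, 5.08, 8.57 and 9.68 in JH3 cultures. No 20E culture reached 1 FPKM and no JH3 culture was under 5, a log2 change of -2.34 (SE 0.21, adjusted p = 5.94e-09, limma). The clock repressor gene cwo was at 6.08, 6.00 and 11.5 FPKM in 20E cultures and 13.4 to 17.7 in JH3 cultures (-1.0, SE 0.16, adjusted p = 6.03e-05, limma). Clk, which encodes an activator of the clock, had 0.27 (adjusted p = 0.393, limma). Pdfr, the receptor gene for the clock neuropeptide PDF, was also lower, at 2.51, 1.29 and 1.28 FPKM in 20E cultures and 2.96 to 7.47 in JH3 cultures (-1.34, SE 0.22, adjusted p = 7.23e-05, limma). It was 1 of 6 measured receptor genes of neuropeptides and peptide hormones, of which 1 was lower and 2 higher, where 11.3% and 8.41% of all genes were. The 2 higher were ETHR (0.76, SE 0.22, adjusted p = 0.0155, limma) and rk (0.63, SE 0.19, adjusted p = 0.0213, limma). The call of ETHR was lost without 20E replicate 2, and that of rk without 20E replicate 1 or 3 or JH3 replicate 3. The hour of collection is not given in the labels, so its part in these values was not tested.

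Several hormone and clock genes were also read within runs. In run A the 20E cultures had 1 library, which the fit assumes to vary like the other groups of that run. Hr4 had a log2 change of 2.25 in run A (adjusted p = 0.474, limma), from 1 library of 20E cultures and 2 of JH3 cultures. It had 2.22 in runs B and C (adjusted p = 0.000594, limma), from 2 and 3 libraries. Kr-h1 had -2.07 in run A (adjusted p = 0.167, limma), and in the other 2 runs -1.83 (adjusted p = 0.0242, limma). In the same order ftz-f1 had -3.22 and -3.27, usp -2.57 and -2.88, and per -2.59 and -2.18, and these 3 were called within runs B and C. E75 had 1.26 and 0.56 and was not called within runs B and C. Eip93F had -0.16 within runs B and C, opposite to its value over all libraries.

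**Figure D3:**
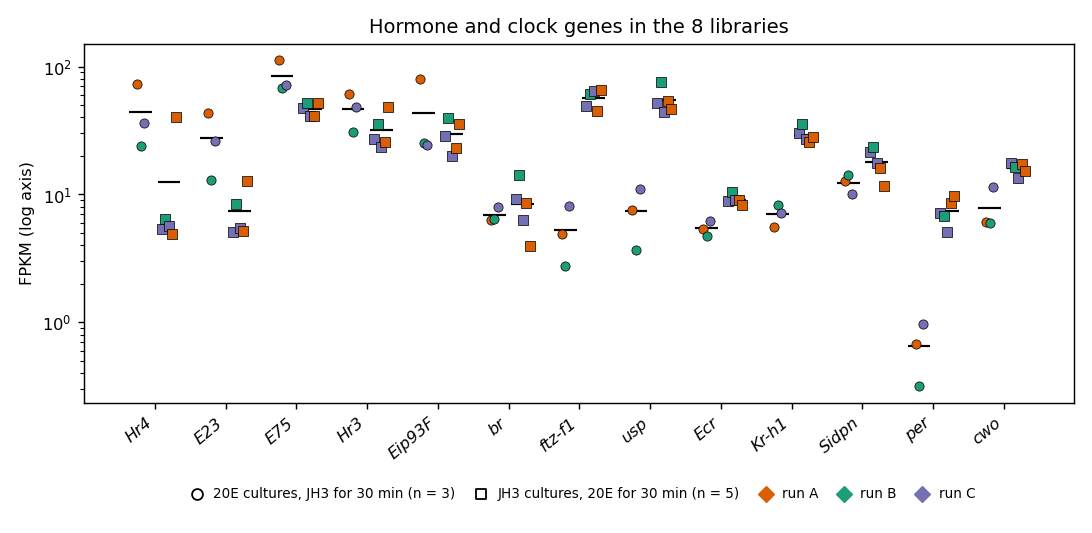
FPKM (log axis) of 13 hormone and clock genes in the 3 libraries of 20E cultures (circles) and the 5 of JH3 cultures (squares), coloured by sequencing run, with group means as lines. Hr4, E23 and E75 were called higher in 20E cultures, while ftz-f1, usp, Ecr, Kr-h1, Sidpn, per and cwo were called lower.

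Several genes of synaptic vesicle release were lower in 20E cultures. Of 15 genes of synaptic vesicles and general neuronal identity, 7 were called lower and none higher, where 11.3% of all genes were called lower. All 15 had a fold change under 0 (median -0.46, against 0.01 over all genes). Between the baselines 10 were under 0 and 5 above (median -0.29). There 5 were called lower and none higher, where 11.4% of all genes were lower. nSyb, the vesicle SNARE gene of neurons, was at 78.8, 56.9 and 52.3 FPKM in 20E cultures and at 148, 144, 132, 144 and 121 in JH3 cultures. The 2 groups were clearly apart, at a log2 change of -1.15 (SE 0.16, adjusted p = 5.23e-06, limma). cpx, which encodes the fusion clamp complexin, was at 43.5, 43.2 and 30.1 FPKM in 20E cultures and 92.7 to 122 in JH3 cultures (-1.45, SE 0.20, adjusted p = 5.19e-06, limma). Rab3, a vesicle GTPase gene, was at 28.2 to 31.4 FPKM in 20E cultures and 68.1 to 82.8 in 4 JH3 cultures, with replicate 5 at 42.6 (-1.19, SE 0.17, adjusted p = 1.08e-05, limma). Rop, the Sec1/Munc18 gene of vesicle fusion, had -0.65 (SE 0.16, adjusted p = 0.00400, limma), with a call lost without 20E replicate 2 (adjusted p = 0.0643). The other called members were Syt1 (-0.78), the calcium sensor gene of vesicle release, Snap25 (-0.46), a membrane SNARE gene, and Appl (-0.39), the amyloid precursor-like gene. The list's count of 7 was 3 without 20E replicate 2, 3 in the fit of the 8 libraries alone and 6 without JH3 replicate 5.

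Cholinergic and GABAergic genes fell, while 2 genes of monoamine synthesis were higher. Of 12 genes that make or transport transmitters, 5 were lower (ChAT, VAChT, ChT, Gad1 and VGAT) and 2 higher, where 11.3% and 8.41% of all genes were. ChAT, which makes acetylcholine, was at 21.8, 15.6 and 15.6 FPKM in 20E cultures and at 34.4, 39.7, 32.9, 33.1 and 34.5 in JH3 cultures, with no overlap and a log2 change of -0.95 (SE 0.13, adjusted p = 6.81e-06, limma). VAChT, which loads it into vesicles, was at 16.3, 9.02 and 14.5 FPKM in 20E cultures and 26.6 to 39.3 in JH3 cultures (-1.27, SE 0.19, adjusted p = 1.83e-05, limma). Between the baselines ChAT had -0.32 (adjusted p = 0.0631, limma) and VAChT -0.73 (adjusted p = 0.00324, limma). Of the 12 genes, 4 were called lower there and none higher, where 11.4% and 9.70% of all genes were. Only 2 of the 12 were called in both sets in the same direction. Gad1, which makes GABA, was at 15.8, 7.68 and 7.68 FPKM in 20E cultures and 35.8 to 49.7 in 4 JH3 cultures, but at 9.26 in JH3 replicate 5, inside the range of the 20E cultures. Its fold change was -1.63 (SE 0.40, adjusted p = 0.00437, limma), and the call was lost without 20E replicate 3 (adjusted p = 0.0541). VGAT, which loads GABA into vesicles, had -0.87 (SE 0.20, adjusted p = 0.00229, limma), with 7.24 to 13 FPKM in 20E cultures and 13.4 to 21.9 in JH3 cultures. The choline transporter gene ChT had -0.92 (SE 0.25, adjusted p = 0.00890, limma). The 2 higher genes, named because they are few, were Trhn, which encodes tryptophan hydroxylase for serotonin, and ple, which encodes tyrosine hydroxylase for dopamine. Trhn was at 3.47, 23.7 and 8.96 FPKM in 20E cultures and 2.57 to 4.31 in JH3 cultures (1.33, SE 0.37, adjusted p = 0.0119, limma), with the high value from 1 library. ple was at 9.49, 9.85 and 29.4 FPKM in 20E cultures and 4.01 to 8.55 in JH3 cultures (0.97, SE 0.32, adjusted p = 0.0296, limma), and was not called without JH3 replicate 5 (adjusted p = 0.0701). The counts were 4 lower and 1 higher without 20E replicate 2, and 4 lower and none higher in the fit of the 8 libraries alone.

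The 35 measured transmitter receptor genes held 15 called lower and 1 called higher in 20E cultures, with a median of -0.56, where 11.3% of all genes were lower and 8.41% higher. GluRIB, an ionotropic glutamate receptor gene, was at 3.57, 2.28 and 2.13 FPKM in 20E cultures and 11.1 to 16.3 in JH3 cultures (-1.98, SE 0.30, adjusted p = 2e-05, limma). The dopamine receptor gene Dop1R2 was at 6.30, 2.98 and 14.9 FPKM in 20E cultures and 23.5 to 33.5 in JH3 cultures (-1.89, SE 0.34, adjusted p = 0.000185, limma). Both were separated from the JH3 cultures in every library. Oct-TyrR, an octopamine and tyramine receptor gene, had -1.55 (SE 0.24, adjusted p = 2.36e-05, limma), the GABA receptor subunit gene Lcch3 -1.62 (SE 0.25, adjusted p = 2.36e-05, limma) and the metabotropic GABA receptor gene GABA-B-R1 -0.84 (SE 0.14, adjusted p = 8.49e-05, limma). In Lcch3 replicate 5 of the JH3 cultures was at 1.35 FPKM, next to the highest 20E culture at 1.27, while the other 4 were at 4.79 to 6.67. Between the baselines the same list had 6 members called lower and 6 called higher, where 11.4% and 9.70% of all genes were. Those 6 higher receptors, among them nicotinic subunits, the kainate-type receptor gene KaiR1D and GABA-B-R2, had log2 fold changes between -0.33 and 0.53 in the 30 min libraries and between 0.48 and 1.42 between the baselines, and 1 of them was called in the 30 min libraries. That one, nAChRbeta2, had 0.29 (SE 0.10, adjusted p = 0.0489, limma) and was not called without JH3 replicate 5 (adjusted p = 0.0736). The difference between the sets was not called for any of the 35. The 15 lower receptors became 9 without 20E replicate 2, 14 without JH3 replicate 5, 16 within runs B and C and 14 with the gene length trend as a covariate, and the median lay between -0.75 and -0.45 in these 4.

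Of 25 ion channel genes, 10 were lower and 1 higher in 20E cultures (median -0.42), where 11.3% and 8.41% of all genes were. Between the baselines 3 were lower and 3 higher (median -0.04), close to the 11.4% and 9.70% of all genes. Shal, a potassium channel gene of the A-type current, was at 45.7, 46.9 and 55.4 FPKM in 20E cultures and at 117, 132, 105, 116 and 149 in JH3 cultures. The fold change was -1.34 (SE 0.22, adjusted p = 6.97e-05, limma), close to the -1.25 between the baselines. The calcium-activated potassium channel gene slo was at 28.5 to 40.7 FPKM in 20E cultures and 61.6 to 99.3 in JH3 cultures (-1.11, SE 0.25, adjusted p = 0.00187, limma). The T-type calcium channel gene Ca-alpha1T had -1.37 (SE 0.28, adjusted p = 0.000715, limma) and the calcium channel subunit gene Ca-beta -1.24 (SE 0.26, adjusted p = 0.000987, limma). Between the baselines these 2 had -0.27 (adjusted p = 0.489, limma) and -0.45 (adjusted p = 0.192, limma). para, the voltage-gated sodium channel gene, had -0.14 (adjusted p = 0.796, limma), chosen here for its role after its value was seen. The 10 became 5 without 20E replicate 2 and 7 in the fit of the 8 libraries alone.

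Signalling genes best known from the mushroom bodies, the insect centres of learning, were examined as a list of 11. Of these 6 were lower and none higher (median -0.94), where 11.3% of all genes were lower, against 4 lower and 1 higher between the baselines (median -0.11). CaMKII, the calcium and calmodulin-dependent kinase gene, was at 40.7, 21.8 and 26 FPKM in 20E cultures and at 99.5, 142, 91.5, 101 and 91.9 in JH3 cultures (-1.81, SE 0.29, adjusted p = 4.37e-05, limma). dnc, the cAMP phosphodiesterase gene of classic Drosophila learning mutants, was at 27.3, 17.9 and 24.2 FPKM in 20E cultures and 50.8 to 75.5 in JH3 cultures (-1.40, SE 0.23, adjusted p = 6.91e-05, limma). The adhesion gene Fas2 had -1.0 (SE 0.25, adjusted p = 0.00522, limma). Dop1R2, above, belongs to this list and to the receptors, and toy, a Pax6 gene called higher in the 20E baseline at 0.95, had 0.25 in the 30 min libraries and was not called. The count was 4 without 20E replicate 2 and 4 within runs B and C. Of 11 neuropeptide genes 3 were lower (Dh31, Dh44 and CCHa1) and none higher, where 11.3% of all genes were lower. None of these 3 calls stood without 20E replicate 2, with limma adjusted p = 0.193, 0.0548 and 0.195. The neuropeptide gene Crz was not called, with log2 fold changes of 0.32 to 2.12 over the alternative fits.

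RNA of cell type markers was summed beside these lists. The neuron markers nSyb, Syt1 and Snap25 are also members called lower in the synaptic vesicle list, so the neuron sum is not a separate reading. The summed FPKM of 4 neuron markers in the table (nSyb, Syt1, Snap25 and brp, of 5 listed) was 177 to 237 in 20E cultures and 282 to 413 in JH3 cultures, without overlap. brp, the active zone scaffold gene, had a log2 change of -0.15 (adjusted p = 0.720, limma), and elav was not among the symbols used here. In bulk cultures, fewer neurons and less of these RNAs per neuron cannot be told apart. Of 7 glial markers 4 were in the table and summed to 30.2 to 84.7 FPKM in 20E cultures and 19.1 to 53.5 in JH3 cultures. The glial transcription factor gene repo had 0.40 (adjusted p = 0.456, limma), moody 0.15 (adjusted p = 0.736, limma) and Gs2 -0.41 (adjusted p = 0.213, limma). The glial neurexin-type gene axo had 1.10 (SE 0.33, adjusted p = 0.0169, limma). That call was lost without 20E replicate 2 or 3 or JH3 replicate 4 (limma adjusted p = 0.0985, 0.0821 and 0.0513). Eaat2, an amino acid transporter gene of Drosophila glia kept in the glial list but not among these markers, was at 76.7, 82.3 and 82.1 FPKM in 20E cultures and at 203 to 234 in JH3 cultures. That is a fold change of -1.45 (SE 0.17, adjusted p = 3.42e-07, limma), with no overlap. With Eaat2 included, the 9 genes of the glial list summed to 158 to 256 FPKM in 20E cultures and 288 to 353 in JH3 cultures. Muscle markers (5 of 7 in the table) summed to 39.4 to 59.0 FPKM in 20E cultures and 33.6 to 52.8 in JH3 cultures, hemocyte markers (2 of 3) to 2.94 to 5.01 in 20E cultures and 3.2 to 5.21 in JH3 cultures, and fat body markers (5 of 5) to 5.04 to 9.22 in 20E cultures and 6.85 to 16.2 in JH3 cultures. The fat body storage protein genes Hex110 and Hex70a reached at most 0.328 and 0.0239 FPKM in 20E cultures and 0.196 and 0.109 in JH3 cultures. The part of cell composition in the neuronal lists was not tested.

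**Figure D4:**
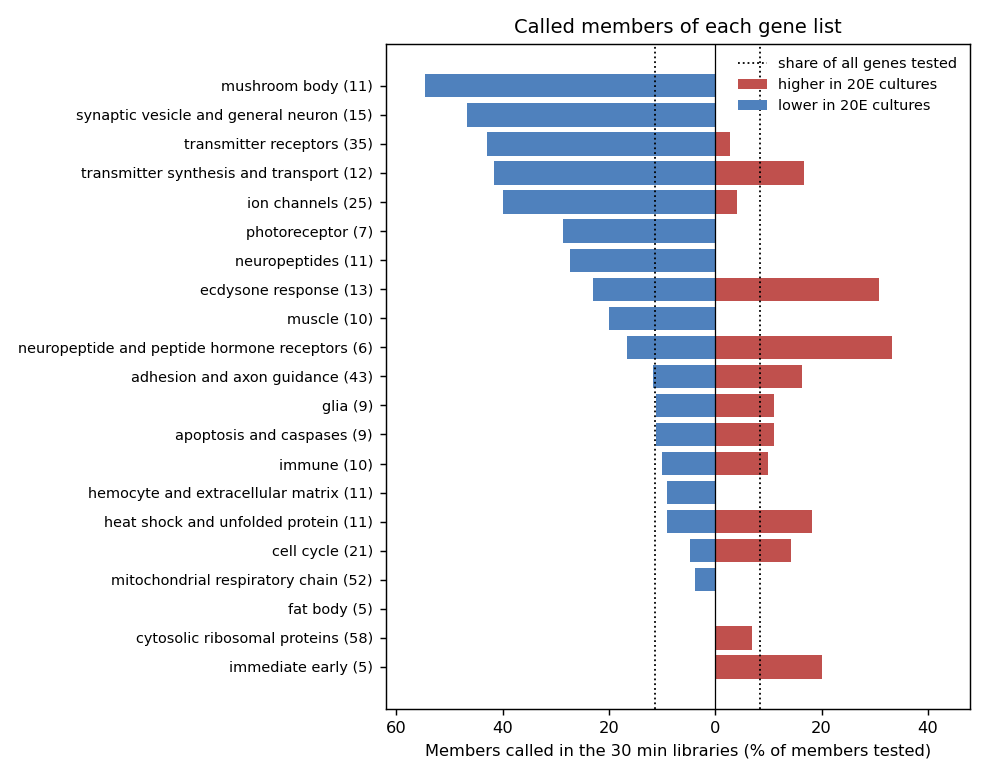
Share of the tested members of each gene list (number in parentheses) that were called higher (right, red) or lower (left, blue) in 20E cultures in the 30 min libraries. Dotted lines are the shares over all 9873 genes, 11.3% lower and 8.41% higher; lists under 5 tested members are not drawn.

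Photoreceptor genes differed between JH3 cultures. Arr2, the arrestin gene of photoreceptors, was at 3.94, 2.93 and 1.97 FPKM in 20E cultures, and at 83.7, 43.3 and 27.1 in JH3 replicates 1 to 3 but at 6.07 and 6.43 in replicates 4 and 5, the 2 libraries of run A. Its fold change of -2.50 (SE 0.89, adjusted p = 0.0456, limma) was called, and the call was lost without any 1 of 6 libraries (adjusted p = 0.0581 to 0.187). These were the 3 of 20E cultures and JH3 replicates 1 to 3. The summed photoreceptor markers (4 of 6 in the table) were at 3.40 to 5.41 FPKM in 20E cultures and 8.29 to 135 in JH3 cultures. Of the 7 genes of the list, 2 were called lower, Arr2 and the carotenoid enzyme gene ninaB (-0.74, SE 0.15, adjusted p = 0.000969, limma). Over all genes 11.3% were called lower.

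Adhesion and axon guidance genes were called in both directions, and the count called lower was close to the share over all genes. Of 43 measured, 7 were higher and 5 lower in 20E cultures (median 0.11), where 8.41% of all genes were higher and 11.3% lower, and all 7 were also called higher in the 20E baseline. There, 15 were called higher and 1 lower, where 9.70% of all genes were higher and 11.4% lower. stan, a cadherin gene that acts in axon and dendrite growth, was at 47.3, 34.9 and 67.5 FPKM in 20E cultures and at 16.4, 23.5, 17.4, 15.3 and 9.03 in JH3 cultures. It was higher in every 20E culture, with a log2 change of 1.61 (SE 0.39, adjusted p = 0.00367, limma). Dscam2, a self-recognition molecule of neurites, was at 42.5, 38.3 and 20.7 FPKM in 20E cultures and 8.24 to 15.4 in JH3 cultures (1.44, SE 0.33, adjusted p = 0.00253, limma), against 2.55 between the baselines. The guidance cue genes sli and Sema1a had 1.0 (SE 0.22, adjusted p = 0.00159, limma) and 0.79 (SE 0.17, adjusted p = 0.00107, limma), and Lac, an Ig-domain adhesion gene, had 1.07 (SE 0.21, adjusted p = 0.000530, limma). None of these 3 overlapped between groups. The other 2 of the 7 were Ephrin at 1.24 (SE 0.30) and NLG-4 at 0.56 (SE 0.19). All 15 members called higher in the 20E baseline had fold changes above 0 in the 30 min libraries, from 0.18 to 1.61, against 0.44 to 2.55 between the baselines. The 5 lower members, named as they are few, were dpr1, Fas2, NLG-5, Nrx-1 and dpr12, at -1.02 to -0.54. The calls of NLG-4 and dpr12 were lost without JH3 replicate 5 (limma adjusted p = 0.0783 and 0.0529). With the gene length trend of each library as a covariate the list had 18 higher and 5 lower. Without 20E replicate 2, the library with the steepest length trend, it had 5 higher and 1 lower.

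**Figure D5:**
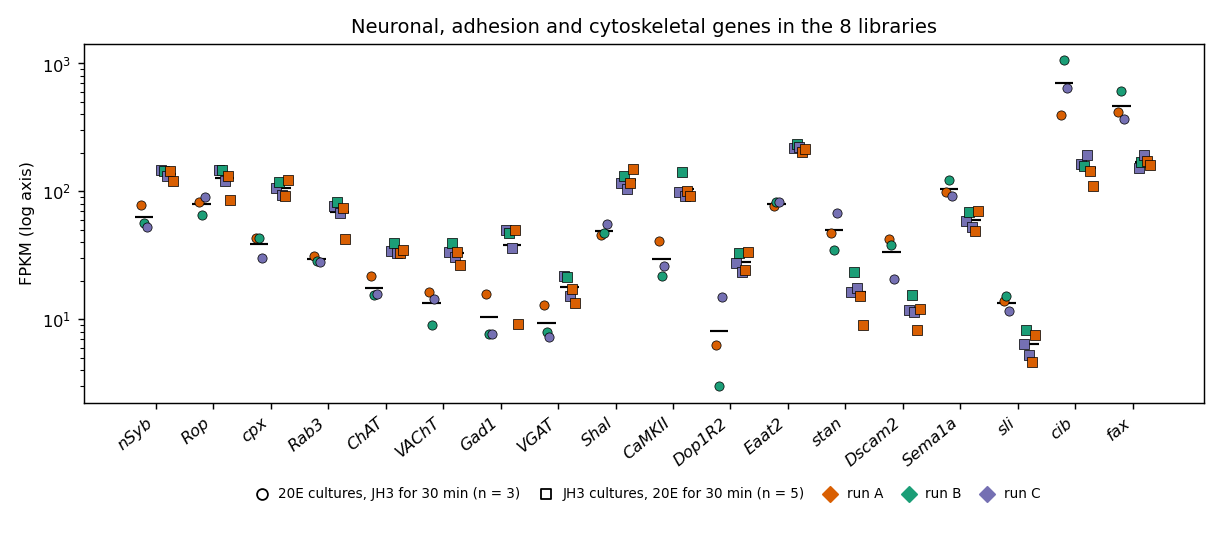
FPKM (log axis) of neuronal, adhesion and cytoskeletal genes in the 3 libraries of 20E cultures (circles) and the 5 of JH3 cultures (squares), coloured by sequencing run, with group means as lines. The genes from nSyb to Eaat2 had lower means and those from stan to fax higher means in 20E cultures, and in Gad1 the JH3 square at 9.26 is replicate 5.

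The 12 largest rises with a symbol and no overlap between groups ran from 1.40 to 2.06 on the log2 scale, and E23, stan and Dscam2, above, were among them. The largest was that of cib, which encodes the actin-binding protein ciboulot. It was at 398, 1059 and 646 FPKM in 20E cultures, against 162, 158, 192, 143 and 110 in JH3 cultures. The fold change was 2.06 (SE 0.34, adjusted p = 7.44e-05, limma), with the highest value in 20E replicate 2, and it was 1.16 between the baselines. fax, known in Drosophila for a role in axon growth, was at 416, 613 and 370 FPKM in 20E cultures and at 152 to 194 in JH3 cultures (1.40, SE 0.21, adjusted p = 1.38e-05, limma). capt, the cyclase-associated protein gene that turns over actin, was at 36.3, 41.4 and 46.8 FPKM in 20E cultures and 13.2 to 16.7 in JH3 cultures (1.41, SE 0.19, adjusted p = 4.08e-06, limma). Each of these 3 kept its call whichever of the 8 libraries was left out. Jupiter, a microtubule-binding protein gene, had 1.47 (SE 0.30, adjusted p = 0.000843, limma), the adhesion molecule gene ed 1.44 (SE 0.22, adjusted p = 2.36e-05, limma) and the receptor tyrosine kinase gene Ror 1.40 (SE 0.29, adjusted p = 0.000815, limma). Aos1, a subunit of the enzyme that activates SUMO, was at 19.5, 28.5 and 22.8 FPKM in 20E cultures and 5.18 to 8.92 in JH3 cultures (1.59, SE 0.29, adjusted p = 0.000202, limma). The gene of the modifier itself, Sumo, was at 13, 17.8 and 17.5 FPKM in 20E cultures and 8.41 to 11.2 in JH3 cultures (0.57, SE 0.13, adjusted p = 0.00224, limma), against -0.04 between the baselines. Pka-C3, a protein kinase A catalytic subunit gene, had 1.51 (SE 0.32) and the chitinase gene Cht7 1.44 (SE 0.33), and neither was called between the baselines (0.49 and 0.67, limma adjusted p = 0.252 and 0.12).

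The 12 largest falls with a symbol and no overlap included ftz-f1, usp and Arr2, above, and ran from -3.75 to -2.41 on the log2 scale. Nep5 (LOC105189831), a neprilysin-type peptidase gene, was at 0.0386, 0.204 and 0.237 FPKM in 20E cultures, against 14.4, 16, 17.7, 11.3 and 12.4 in JH3 cultures. Each 20E culture was thus under 1 FPKM and each JH3 culture above 10, with a log2 change of -3.74 (SE 0.23, adjusted p = 1.73e-12, limma) that understates so low a level. Scp2, a calcium-binding protein gene, was at 27, 12.8 and 9.05 FPKM in 20E cultures and at 179, 243, 223, 197 and 201 in JH3 cultures (-3.75, SE 0.32, adjusted p = 1.22e-09, limma). Drep4, a gene of the DNA fragmentation factor family, was at 1.61, 1.2 and 1.59 FPKM in 20E cultures and 10.7 to 22.8 in JH3 cultures (-2.94, SE 0.21, adjusted p = 2.16e-11, limma). nolo, an ADAMTS-like matrix protein gene, was at 7.70, 11.2 and 14.5 FPKM in 20E cultures and 63.4 to 98.7 in JH3 cultures (-2.91, SE 0.30, adjusted p = 5.19e-08, limma). Between the baselines these 4 had -3.31, -3.07, -2.46 and -2.89, all called. Ktl had -2.97 (SE 0.29), the transcription factor gene Glut4EF -2.54 (SE 0.28), the adenylyl cyclase gene Adcy8 -2.62 (SE 0.29), the organic anion transporter gene Oatp26F -2.43 (SE 0.23) and RyR, the calcium release channel of internal stores, -2.41 (SE 0.38). Of the 12, Arr2 was the one not called between the baselines.

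The 8 largest rises and 8 largest falls of the baseline comparison were followed into the second set. All 16 had the same direction there. Of the 8 falls, 7 were called in the fit of the 8 libraries alone, with a ratio of the 30 min to the baseline effect between 0.739 and 1.39; the exception was spab, at 84.0, 35.7 and 313 FPKM in 20E cultures and 297 to 554 in JH3 cultures (adjusted p = 0.066, limma). Its 20E replicate 3 was inside the range of the JH3 cultures, and in the joint fit spab was called at -2.09 (-1.32 without 20E replicate 2, and -3.01 without replicate 3). Mp20, a muscle protein gene in Drosophila, was among those called, at 0.658, 0.559 and 2.07 FPKM in 20E cultures and 5.70 to 11.7 in JH3 cultures (-2.16, SE 0.36, adjusted p = 7.15e-05, limma). Of the 8 rises 4 were called, and the ratios ran from 0.255 to 0.846. Those not called were Hr3 and Eip93F, above, with p120ctn and mthl1. In the joint fit p120ctn, a gene of cadherin junctions, was at 0.88 (adjusted p = 0.0714, limma, and 0.0236 without JH3 replicate 2) and mthl1, a receptor-like gene, at 0.60 (adjusted p = 0.333, limma).

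Genes of protein synthesis and respiration had different values in the 2 sets, though no difference between the sets was called. Of 58 cytosolic ribosomal protein genes, 4 were called higher in 20E cultures and none lower, under the 8.41% of all genes, but all 58 had a fold change above 0, between 0.10 and 1.17 (median 0.62). Between the baselines the median was -0.06 and none was called. Their summed FPKM was 4450, 9590 and 5110 in 20E cultures and 3130 to 4660 in JH3 cultures, with the highest value in 20E replicate 2. RpS12 was at 168, 454 and 208 FPKM in 20E cultures and 84.3 to 143 in JH3 cultures (1.17, SE 0.37, adjusted p = 0.0252, limma), RpLP0 had 0.93 (SE 0.30), RpLP1 0.95 (SE 0.32) and RpL29 0.81 (SE 0.27). The median was 0.38 with 0 members called without 20E replicate 2, where RpLP1 was at 0.52, and 0.29 with 10 called higher when the gene length trend was a covariate. Without 20E replicate 3, JH3 replicate 1 or JH3 replicate 2 the count was also 0, at medians of 0.68, 0.61 and 0.49. Of 52 nuclear genes of the respiratory chain, 2 were lower in 20E cultures (ATPsynB and ND-75), with a median of -0.13, against 26 lower between the baselines (median -0.49). The 2 calls are 3.85% of the list, under the 11.3% of all genes called lower. Between the baselines 11.4% of all genes were lower. ND-75 was at 34.2, 23.8 and 25.6 FPKM in 20E cultures and 35.6 to 44.6 in JH3 cultures (-0.49, SE 0.14, adjusted p = 0.0162, limma), and ATPsynB had -0.58 (SE 0.20, adjusted p = 0.0431, limma). Both calls were lost without 20E replicate 2 (limma adjusted p = 0.134 and 0.111) or 3 (limma adjusted p = 0.0597 and 0.188), and that of ATPsynB without 4 other libraries too (20E replicate 1 and JH3 replicates 1, 3 and 4, limma adjusted p = 0.053 to 0.0901). With the length trend as a covariate 22 respiratory genes were lower, with a median of -0.30, where 14.6% of all genes were lower. With quantile normalization, or without 20E replicate 3, the count was 0.

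Smaller lists had few called members. Of 10 immune genes measured, 1 was higher and 1 lower, where 8.41% and 11.3% of all genes were. The higher one was imd, which encodes the adaptor that gives the Imd immune pathway its name. It stood at 9.33, 9.91 and 8.54 FPKM in 20E cultures and 2.30 to 3.95 in JH3 cultures (1.26, SE 0.15, adjusted p = 6.09e-07, limma), with no overlap between the groups. The lower one was pll (-0.30, SE 0.11, adjusted p = 0.0487, limma). Its call was lost without 20E replicate 1 or 3 or JH3 replicate 3, 4 or 5 (limma adjusted p = 0.0806 to 0.329). Of 21 cell cycle genes 3 were higher and 1 lower, where 8.41% and 11.3% of all genes were. CycD, the cyclin gene of G1, was at 5.18, 3.80 and 4.78 FPKM in 20E cultures and 0.924 to 2.24 in JH3 cultures (1.05, SE 0.34, adjusted p = 0.0266, limma), a call lost without any of the 3 20E cultures (adjusted p = 0.0639 to 0.0911) or JH3 replicate 4 (0.0748). geminin, which limits DNA replication, had 0.81 (SE 0.20, adjusted p = 0.00399, limma). The replication origin gene Orc4 had 0.51 (SE 0.15, adjusted p = 0.0145, limma), a call lost without 20E replicate 2 or 3 (limma adjusted p = 0.0831 and 0.117). CycE, the cyclin gene of S phase entry, had -0.44 (SE 0.12, adjusted p = 0.0115, limma) and lost its call without 20E replicate 2 (limma adjusted p = 0.0925). Of 11 heat shock and unfolded protein genes, the mitochondrial chaperone gene Hsc70-5 (0.41, SE 0.10) and the endoplasmic chaperone gene Gp93 (0.45, SE 0.13) were higher and Droj2 (-0.39, SE 0.11) lower. Without 20E replicate 3 the call of Gp93 was lost (limma adjusted p = 0.0938), and without 20E replicate 1 or 2 that of Droj2 (limma adjusted p = 0.0524 and 0.129). The activity-regulated nuclear receptor gene Hr38 was at 12.5, 2.98 and 145 FPKM in 20E cultures and 24.6 to 54.8 in JH3 cultures, so that 1 library alone reversed the order of the other 2. It was not called (-1.02, adjusted p = 0.230, limma), and without 20E replicate 3 it was at -2.59 (adjusted p = 3.82e-05, limma).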

How the data were processed

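RNA levels were analysed in 8 libraries of 30 min cultures, with 9 baselines and the other 18 of 35 libraries entering the joint fit. Polyadenylated RNA was made into strand-specific dUTP libraries, per the labels' protocols. The authors deposited FPKM per gene in 1 table, and the submitters' processing notes name bcl2fastq, STAR, featureCounts and DESeq2. The genome build, the settings and any use of strand in counting were not given in the sources used here. Overlapping or near-identical genes may therefore share reads.

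Genes with FPKM of at least 1 in 3 or more libraries (9873 of 14001) were fitted with limma 3.58.1 in R 4.3.3 as log2(FPKM + 1), with group and run (read from the date and flow cell code in the labels) as terms and 25 residual degrees of freedom, with trended and robust variances. The 8 libraries and the 9 baselines were also fitted alone. Scripts were tested on simulated data. Whole reads were recovered from the steps of FPKM for 13163 genes (100.0% of nonzero values within 0.03 reads of a whole number), which gave the depths and a voom alternative. Gene symbols came from the RefSeq table of assembly Hsal_v8.6, which matched 13989 identifiers and gave 4117 of them a symbol. Libraries of 1 group differed by more than sampling noise.

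Named genes were the 12 largest rises and falls with a symbol, mean FPKM of at least 2 and no overlap, 14 hormone and clock genes, up to 4 called members of each of 24 lists, 6 differences between the sets each way and the 8 largest baseline changes each way. Others were chosen after their values were seen, to account for small counts. The members and lists were chosen with earlier results of these data known. Alternatives covered the pseudocount, filter, scaling, run term, gene length trend and each library left out. No sequences were used.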

Additional observations from a re-analysis of the deposited data

Results flagged for a closer look

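In 5 of 102 results examined, 1 of the 5 JH3 cultures lay far from the other 4; chance flags about 1 in 20 such groups. In replicate 5, Hr4 was at 40.1 FPKM, against 4.90 to 6.49 in the others, nolo at 63.4 FPKM, against 90.6 to 98.7, and CycE at 8.73 FPKM, against 5.26 to 6.05. In replicate 2, CaMKII was at 142 FPKM, against 91.5 to 101, and ChAT at 39.7 FPKM, against 32.9 to 34.5. Replicate 5 was also the shallowest of the 8 libraries; the part of depth in these values was not tested. The 20E cultures, with 3 libraries, were too few to examine in this way.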

How the results depend on the processing

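Of the 1946 genes called between 20E and JH3 cultures, the count was 63 within run A and 991 when only the 8 libraries were fitted, and both use fewer samples. With 1 library left out it ran from 985 (without 20E replicate 2) to 1983 (without JH3 replicate 5). The difference between the sets called 0 to 24 genes, JH3 for 30 min against the 20E baseline 0 to 129, both highest without 20E replicate 1, and 20E for 30 min against the JH3 baseline 0. The baseline count ran from 1219 (without JH3 baseline replicate 3) to 2482 (without replicate 4), and the mean of both effects from 2678 to 3585. Other settings, among them voom on recovered reads (1943) and quantile normalization (2002), left the 30 min count within 1.5 times. Of 101 named genes 87 were called; all 87 had the same direction in every setting, and 8 kept the call in every one. Same-numbered samples did not deviate together (r of -0.0334, -0.291 and -0.231), and pairs of unlike number reached 0.489. So few pairs cannot show whether the numbers pair the cultures. With the replicate block 1960 genes were called. What more libraries of 20E cultures would add was not tested.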
